A study of Mus musculus with 18 samples.

Results

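The homeostatic microglia genes are transcripts by which resting microglia, the resident macrophages of the brain, are told from other cells. The 9 taken here were chosen by name, P2ry12, P2ry13, Tmem119, Siglech, Fcrls, Sall1, Gpr34, Olfml3 and Slc2a5, out of 25918 gene names in the count table. All 9 were followed through the 6 groups of the study. Messenger RNA was sequenced of BALB/c mice, taken either from brain cortex or from a skull bone (the interparietal), in 18 libraries. Cortex came from controls and from day 2 and day 6 after ischemic injury, and skull came from controls and from day 2 and day 4, with 3 libraries per group. The injured samples held the ischemic and the peri-ischemic region together, and no label names an allele, an age, a sex or a drug. Counts per library ran from 13005050 to 27654269 in cortex and from 13142770 to 15445503 in skull. Levels below are CPM, the counts of a gene scaled to a common library size, with TMM factors set within each tissue, given by library or as mean ± SD. Changes are log2 differences ± their standard error in the edgeR fit. A gene was called at an adjusted p below 0.05 (edgeR's quasi-likelihood test, two-sided, Benjamini-Hochberg over all genes tested). All 9 genes passed the filter on low counts in cortex, and 8 of 9 passed it in skull, where Slc2a5 did not.

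One library stands apart from the others and bears on every comparison with control skull. In skull control replicate 3, 99.9% of the 787 genes that differed at least 2-fold between control replicates 1 and 2 (mean of 10 CPM or more) lay between these libraries, at a median of 0.359 of the way from replicate 1 to replicate 2 (quartiles 0.311 and 0.409). Its squared distance from the closest mixture of both, which held 35.3% of replicate 2, averaged 2.54 times the counting variance over 11208 genes. For the other 17 libraries this value was 12.41 to 46.68, although all of the 182 such genes of day 6 cortex replicate 3 also lay between the others of its group. It is listed as a sample of its own, but no label says that it came from its own animal, and whether it is independent of the others was not tested. The p-values against control skull count it as separate and may be too small, so results that rest on it are also given without it.

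Microglia survey the tissue with fine processes and are kept in their resting state by signals such as TGF-beta and ligands of Csf1r. Many genes of this state are known to fall when microglia meet injury or inflammation, while genes shared with other macrophages rise. P2ry12 and P2ry13 are receptors for ADP released by damaged cells, and Gpr34 is a receptor for lysophosphatidylserine. Siglech is a sialic acid-binding lectin of the cell surface that is also known from plasmacytoid dendritic cells, and Fcrls is a scavenger-type relative of the Fc receptors. Tmem119 is a membrane protein that is also made by bone-forming osteoblasts. Olfml3 is a secreted olfactomedin-domain protein, Sall1 is a zinc finger transcription factor of microglial identity, and Slc2a5 is the fructose transporter GLUT5.

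In mm10 with the GENCODE M21 annotation, 4 of the genes lay on chromosome 3, all on the minus strand. P2ry13 (chr3:59207892-59210882) and P2ry12 (chr3:59216272-59262871) lay next to each other inside the gene Med12l, with 9 exon bases of P2ry12 shared with Med12l and 0 of P2ry13. Fcrls lay at chr3:87250758-87263738 and Olfml3 at chr3:103722222-103738001. Gpr34 lay on chromosome X (chrX:13632089-13640858, plus strand) inside Cask, with 0 exon bases shared. Tmem119 (chr5:113793729-113800516), Siglech (chr7:55768178-55778925), Sall1 (chr8:89027235-89044162) and Slc2a5 (chr4:150119283-150144169) overlapped no other gene. RefSeq start sites on GRCm38.p6 were at hand for 7 of the 9 genes. The 250 bases before the start are shown for 3 of them, because P2ry13 and Olfml3 rose together in injured cortex (r = 0.99 over the 9 libraries) whereas Siglech fell at day 2. P2ry12 also fell at day 2, and its window, which lies within annotated exons, holds AGGAAG 52 bases before the start and is not printed. The windows are chr3:59210883-59211132 for P2ry13 and chr3:103738002-103738251 for Olfml3, both on the minus strand, and chr7:55767934-55768183 for Siglech on the plus strand. Capitals mark GAGGAA, the core of the motif of the myeloid factor PU.1, or AGGAAG, a motif of the wider ETS family, on either strand; matches of these motifs may overlap.
P2ry13: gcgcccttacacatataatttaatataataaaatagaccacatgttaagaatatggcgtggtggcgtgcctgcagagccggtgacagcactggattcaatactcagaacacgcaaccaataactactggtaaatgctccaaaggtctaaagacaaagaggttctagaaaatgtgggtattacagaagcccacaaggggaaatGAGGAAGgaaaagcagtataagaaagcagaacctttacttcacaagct
Olfml3: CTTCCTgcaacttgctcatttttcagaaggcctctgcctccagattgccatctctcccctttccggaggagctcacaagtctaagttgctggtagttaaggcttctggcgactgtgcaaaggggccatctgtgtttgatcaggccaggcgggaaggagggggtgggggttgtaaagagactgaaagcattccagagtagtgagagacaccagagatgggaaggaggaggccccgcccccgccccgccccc
Siglech: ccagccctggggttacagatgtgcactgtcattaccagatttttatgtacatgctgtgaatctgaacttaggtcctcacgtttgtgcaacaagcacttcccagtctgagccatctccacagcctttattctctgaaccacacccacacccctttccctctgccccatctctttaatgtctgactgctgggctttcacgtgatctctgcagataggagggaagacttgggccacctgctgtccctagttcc
P2ry13 held both motifs in an overlapping match 47 and 48 bases before the start, Olfml3 held AGGAAG on the reverse strand at base 250, and Siglech held neither in this window. Either motif was present in 5 of the 9 windows of these 7 genes, and in 39.2% of 32841 promoter windows of the same length; GAGGAA alone was in 23.26% and AGGAAG in 29.49%. These matches describe letters, not bound sites.

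The cortex at day 2 held less of some homeostatic genes and more of others. P2ry12 and Siglech fell, P2ry13, Gpr34, Fcrls and Olfml3 rose, and Tmem119, Sall1 and Slc2a5 did not pass the test. Thus 4 of 9 were called higher and 2 lower, where 14.7% of 18151 genes tested were called higher and 9.99% lower, 24.7% in all. Their median log2 difference was 0.49, and that of all genes tested was 0.00. At day 6, 7 of 9 were called higher and 0 lower, where 7.93% of all genes tested were higher and 2.38% lower, 10.3% in all. The median was 0.79, against -0.02 for all genes. DESeq2, limma voom and an unadjusted p under 0.05 in edgeR also found 0 lower at day 6. The 7 became 4 without control replicate 2, control replicate 3 or day 6 replicate 2. Both days were set against the same control libraries. In bulk tissue, a change in the number of microglia and a change in RNA per microglia cannot be told apart, and the labels do not say that each library came from its own animal, so that a p-value measures the spread between these libraries only.

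**Figure D1:**
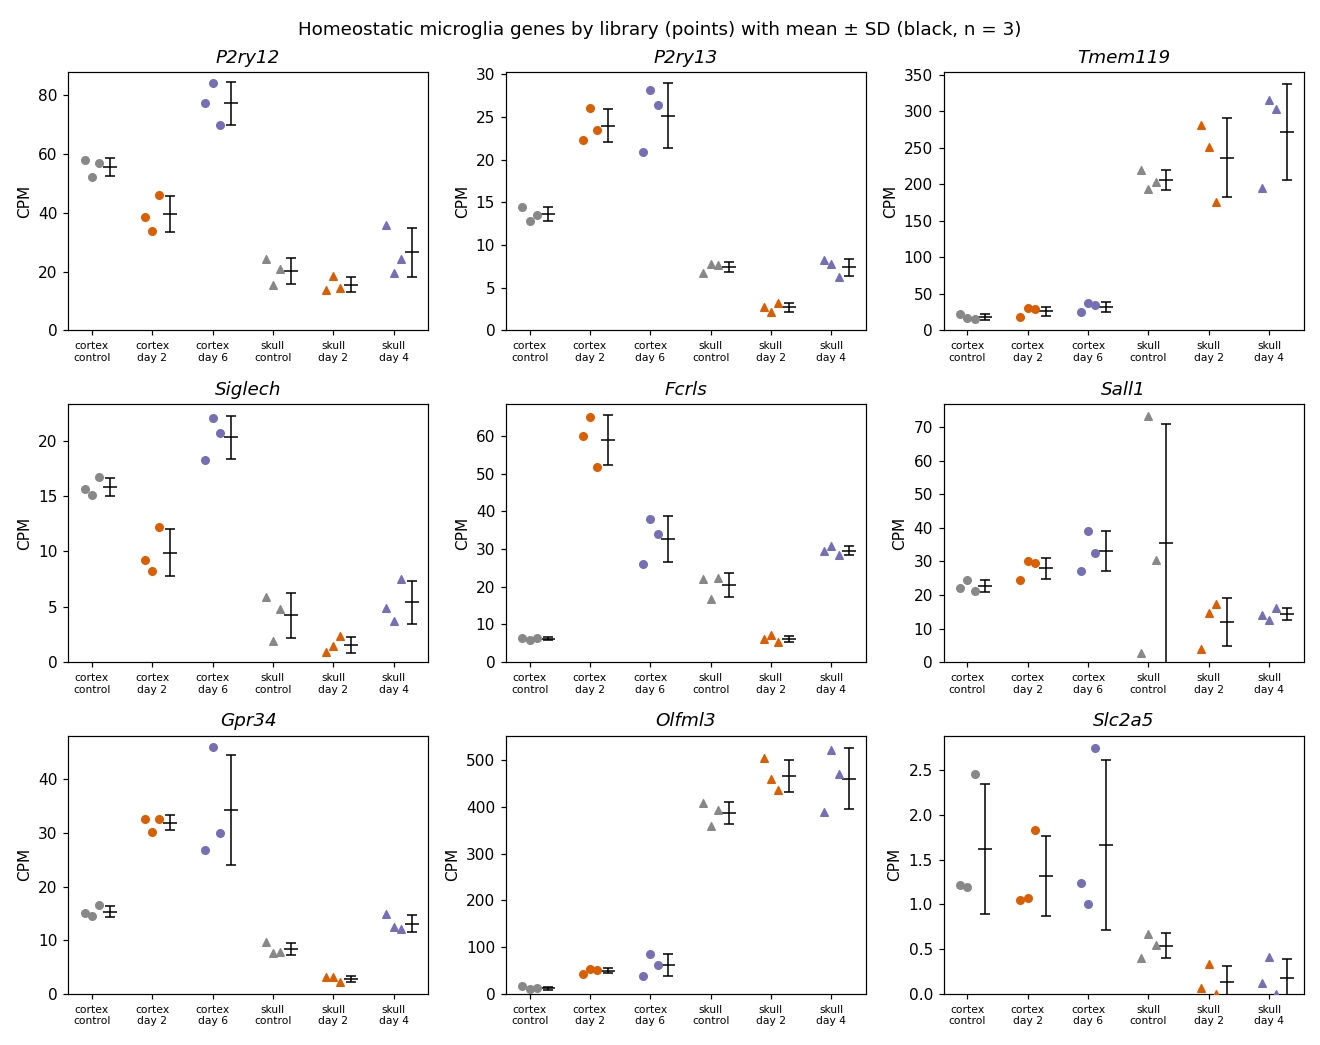
Level of each of the 9 genes in CPM (vertical axis, from 0) in every library of cortex (circles) and skull (triangles), which are scaled separately, with the mean ± SD of 3 libraries in black; SD bars that reach below 0 are cut there. P2ry12 and Siglech dip in cortex at day 2 and are highest at day 6, and Fcrls peaks in cortex at day 2.

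Among the ADP receptors, P2ry12 stood at 57.9, 52.1 and 57.0 CPM in the control cortex libraries, at 38.6, 33.9 and 45.9 CPM at day 2 and at 77.3, 84.3 and 69.9 CPM at day 6. Every day 2 library was below, and every day 6 library above, the control libraries. The fall at day 2 to 71.0% of the control level (log2 -0.49 ± 0.12, adjusted p = 0.00668) was followed by a rise from day 2 to day 6 of 0.97 ± 0.12 (adjusted p = 0.000267, edgeR's quasi-likelihood test). Day 6 was 1.39-fold above control (0.47 ± 0.12, adjusted p = 0.0171), a call that was lost without control replicate 2 (adjusted p = 0.0903), control replicate 3 (0.0524) or day 6 replicate 2 (0.101). Its neighbour P2ry13 stood at 14.5, 12.8 and 13.5 CPM in controls, 22.3, 26.1 and 23.5 CPM at day 2 and 20.9, 28.2 and 26.4 CPM at day 6. Both injured groups lay above the controls and overlapped each other. P2ry13 rose by 0.82 ± 0.14 at day 2 (adjusted p = 0.000778) and by 0.89 ± 0.14 at day 6 (adjusted p = 0.00117), and its day 6 to day 2 difference of 0.07 ± 0.14 did not pass the test. The pair thus moved in opposite directions at day 2. Med12l, whose span holds both receptors, differed by -0.32 ± 0.13 at day 2 (adjusted p = 0.105) and fell by 0.75 ± 0.14 at day 6 (adjusted p = 0.0029); the sources used here do not say whether counting used strand.

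Gpr34, the lysophosphatidylserine receptor, stood at 15.1, 14.5 and 16.5 CPM in control cortex, 32.7, 30.3 and 32.7 CPM at day 2 and 26.8, 46.0 and 29.95 CPM at day 6. No injured library reached down to the controls, and day 6 replicate 2 was well above the rest. The rise was 2.08-fold at day 2 (1.05 ± 0.17, adjusted p = 0.000572) and 2.24-fold at day 6 (1.16 ± 0.17, adjusted p = 0.000795). Cask, the gene around it, differed by -0.17 ± 0.10 at day 2 and by -0.06 ± 0.10 at day 6, neither of which passed the test.

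Siglech stood at 15.7, 15.1 and 16.7 CPM in controls, 9.24, 8.19 and 12.2 CPM at day 2 and 18.2, 22.05 and 20.7 CPM at day 6, with no overlap between any of the 3 groups. It fell by 0.68 ± 0.16 at day 2 (adjusted p = 0.00797) and rose by 1.04 ± 0.17 between day 2 and day 6 (adjusted p = 0.0019). Its day 6 level differed from control by 0.36 ± 0.16, which did not pass the test (adjusted p = 0.187). Over the 9 cortex libraries Siglech followed P2ry12 (r = 0.97), whereas P2ry12 and P2ry13 had r = 0.03.

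Fcrls had the largest fitted change of the 9 in cortex on both days, though at day 6 Olfml3 was close (2.29). With 1 library left out, the day 6 value ran from 2.25 to 2.52 for Fcrls and from 1.97 to 2.55 for Olfml3. The levels of Fcrls were 6.49, 5.87 and 6.45 CPM in control cortex, 59.8, 64.9 and 51.7 CPM at day 2, and 25.9, 38.0 and 33.9 CPM at day 6. The 3 groups were fully apart, with day 2 on top. The rise was 9.38-fold at day 2 (3.23 ± 0.16, adjusted p = 7.61e-08) and 5.2-fold at day 6 (2.38 ± 0.15, adjusted p = 7.42e-06), with a fall of 0.85 ± 0.14 between these days (adjusted p = 0.00228). Tmem119 was at 23.1, 16.6 and 16.2 CPM in controls, 19.0, 30.3 and 29.4 CPM at day 2 and 24.8, 36.9 and 34.9 CPM at day 6. Control replicate 1 lay above day 2 replicate 1, so that these groups overlapped. The day 2 difference of 0.49 ± 0.21 did not pass the test (adjusted p = 0.11), though it did without control replicate 1 (0.0306) or day 2 replicate 1 (0.0195). Tmem119 rose by 0.79 ± 0.21 at day 6 (adjusted p = 0.0316), a call that was lost without control replicate 2 or 3 or day 6 replicate 2 or 3 (adjusted p from 0.119 to 0.139).

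Olfml3, the secreted protein, was at 16.2, 9.96 and 12.1 CPM in control cortex, 43.6, 54.0 and 51.2 CPM at day 2 and 38.0, 86.1 and 62.2 CPM at day 6. All injured libraries lay above all controls, and the day 6 libraries were spread over a wider range than those of day 2. The rise was 3.90-fold at day 2 (1.96 ± 0.29, adjusted p = 0.00134) and 4.88-fold at day 6 (2.29 ± 0.30, adjusted p = 0.00155). The transcription factor Sall1 was at 22.05, 24.6 and 21.2 CPM in controls, 24.4, 30.01 and 29.6 CPM at day 2 and 27.2, 39.2 and 32.6 CPM at day 6. Day 2 replicate 1 lay just below the highest control, while day 6 was apart from the controls. The day 2 difference of 0.31 ± 0.14 did not pass the test (adjusted p = 0.142), and Sall1 rose by 0.55 ± 0.14 at day 6 (adjusted p = 0.0261). This call too was lost without control replicate 2 or 3 or day 6 replicate 2 or 3 (adjusted p from 0.0503 to 0.156). The fructose transporter Slc2a5 was scarce, at 1.21, 1.19 and 2.45 CPM in controls, 1.05, 1.08 and 1.83 CPM at day 2 and 1.23, 1.01 and 2.74 CPM at day 6. These ranges overlapped, and neither difference (-0.29 ± 0.47 and 0.00 ± 0.43) passed the test.

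Between day 2 and day 6 in cortex, 2 of 9 genes were called higher (P2ry12 and Siglech) and 1 lower (Fcrls), where 5.3% of all genes tested were higher and 6.26% lower, 11.6% in all. Over all 18151 genes, the libraries of the groups did not overlap in 39% of genes for day 2 against control, 30.9% for day 6 against control and 30.5% for day 6 against day 2. Groups that stand apart were therefore common in this tissue.

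**Figure D2:**
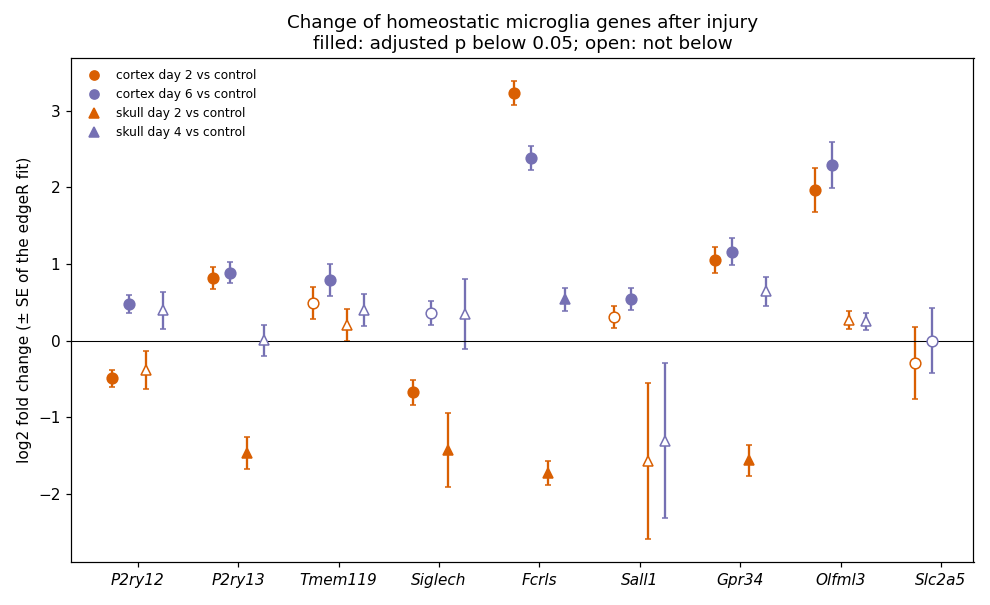
Log2 difference from the controls of the same tissue (vertical axis) with its standard error, for cortex (circles) and skull (triangles); filled symbols passed an adjusted p below 0.05, and Slc2a5 was not tested in skull. Fcrls, Gpr34 and P2ry13 are above 0 in cortex at day 2 and below 0 in skull at day 2.

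Per kilobase of annotated exon, P2ry12 led in control cortex at 21.9 ± 1.22 CPM per kb, ahead of Tmem119 at 8.05 ± 1.67 and Gpr34 at 7.35 ± 0.50, which lay within their spread of each other. P2ry13 (5.38), Siglech (4.68), Sall1 (4.29), Fcrls (2.69), Olfml3 (2.07) and Slc2a5 (0.476 CPM per kb) followed. At day 2 Fcrls led at 25.2 ± 2.86 CPM per kb, above P2ry12 at 15.5 ± 2.38 and Gpr34 at 15.3 ± 0.67. At day 6 P2ry12 led again at 30.3 ± 2.82 CPM per kb, and Gpr34, Fcrls and Tmem119 stood at 16.4, 13.97 and 13.91 CPM per kb, within their spread. For Olfml3 the length joins the exons of all annotated transcripts, 6161 bases, which lowers its value per kb.

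The wider cortex was rich in macrophage transcripts after injury. Of all genes tested in cortex, 14.7% were called higher and 9.99% lower at day 2, and 7.93% and 2.38% at day 6. Of 12 genes that microglia share with other macrophages, 12 rose on both days, by a median of 2.24 at day 2 and 2.60 at day 6. Examples at day 2 were the complement genes C1qb (2.62 ± 0.22) and C1qa (2.19 ± 0.22), the integrin Itgam (2.15 ± 0.23) and the adaptor Tyrobp (2.43 ± 0.27). Their summed level went from 248 to 279 CPM in controls to 761 to 1119 CPM at day 2 and 987 to 1835 CPM at day 6. Markers of border macrophages were higher in 9 of 10 cases at day 2, led by Mrc1 (2.80 ± 0.29), Pf4 (3.79 ± 0.53) and Stab1 (2.84 ± 0.30), and in 4 of 10 at day 6. Their sum was 19.9 to 34.2 CPM in controls, 148 to 238 CPM at day 2 and 93.1 to 187 CPM at day 6. Monocyte markers were higher in 7 of 9 cases at day 2, with a sum of 26.7 to 29.98 CPM in controls, in which 1 of the 9 was at 0, and of 74.9 to 87.2 CPM at day 2. At day 6 they were higher in 2 of 9 cases, with a sum of 27.7 to 56.3 CPM. Vcan alone made up much of these sums. It stood at 38.6, 31.7 and 38.8 CPM at day 2 and at 24.4, 48.0 and 39.1 CPM at day 6. Neuron markers fell in 8 of 10 cases at day 2, with a median of -0.52. Neutrophil markers summed to 1.52 to 3.06 CPM in controls, in which 1 of the 10 was at 0, to 40.2 to 53.2 CPM at day 2, with 3 of 5 tested higher, and to 2.01 to 6.79 CPM at day 6, with 2 of 5 higher and 2 of the 10 at 0. Fibroblast markers summed to 96.6 to 203 CPM in controls and 189 to 305 CPM at day 2, with 2 of 7 higher and 1 lower, and none at 0. At day 6 the fibroblast sum was 257, 772 and 506 CPM in replicates 1, 2 and 3, with 2 of 7 higher. Osteoblast genes, which include collagens, summed to 131 to 159 CPM in controls and to 367, 1138 and 816 CPM at day 6, with 2 of 8 higher. The day 6 libraries stood in the same order for both sums as for Olfml3, lowest in replicate 1 and highest in replicate 2. This order was not particular to them. It also held for the sums of the shared macrophage, border macrophage and monocyte genes. Among the 9 genes it held for P2ry13, Tmem119, Siglech, Fcrls, Sall1 and Gpr34 as well. The part of these other cells in the changes of the homeostatic genes was not tested.

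Set against the shared genes within each library, most homeostatic genes stood lower after injury. The ratio is log2(CPM + 0.5) of a gene minus the mean of that value over the 12 shared genes. For P2ry12 it was 2.06, 2.07 and 2.23 in control cortex, -0.11, -0.91 and -0.12 at day 2 and 0.59, -0.18 and -0.14 at day 6. The controls were far above both injured groups, and the difference was -2.50 at day 2 and -2.03 at day 6. Every control library was also above every injured library for Siglech (-2.67 at day 2 and -2.15 at day 6), Slc2a5 (-2.20 and -2.50), Sall1 (-1.70 and -1.97), Tmem119 (-1.53 and -1.72), P2ry13 (-1.21 and -1.64) and Gpr34 (-0.97 and -1.40). Each of these has p = 0.1 by the exact two-sided permutation test, the smallest that 3 libraries against 3 allow. Because all 12 shared genes rose, a gene that rose less or stayed level also stands lower in this ratio. Slc2a5, which was scarce and whose own change did not pass the test on either day, is such a gene. Fcrls went the other way at day 2, with ratios of -1.002, -0.98 and -0.82 in controls against 0.52, 0.02 and 0.04 (difference 1.13, exact p = 0.1), and stood near its control ratio at day 6 (-0.22, exact p = 0.3). Olfml3 overlapped its controls on both days, with differences of -0.06 at day 2 (exact p = 0.9) and -0.30 at day 6 (exact p = 0.2). The size of these differences depends on the reference. With Csf1r alone, the difference of P2ry12 was -1.46 at day 2 and -0.83 at day 6, that of Gpr34 was 0.07 and -0.20, that of Fcrls was 2.16 and 0.97, and that of Olfml3 was 0.98 and 0.89. Siglech then differed by -1.63 and -0.95, Slc2a5 by -1.16 and -1.30, Sall1 by -0.67 and -0.78, Tmem119 by -0.49 and -0.53 and P2ry13 by -0.17 and -0.45. With this reference, Gpr34 and Olfml3 at day 2, and Fcrls and Olfml3 at day 6, changed sign.

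**Figure D3:**
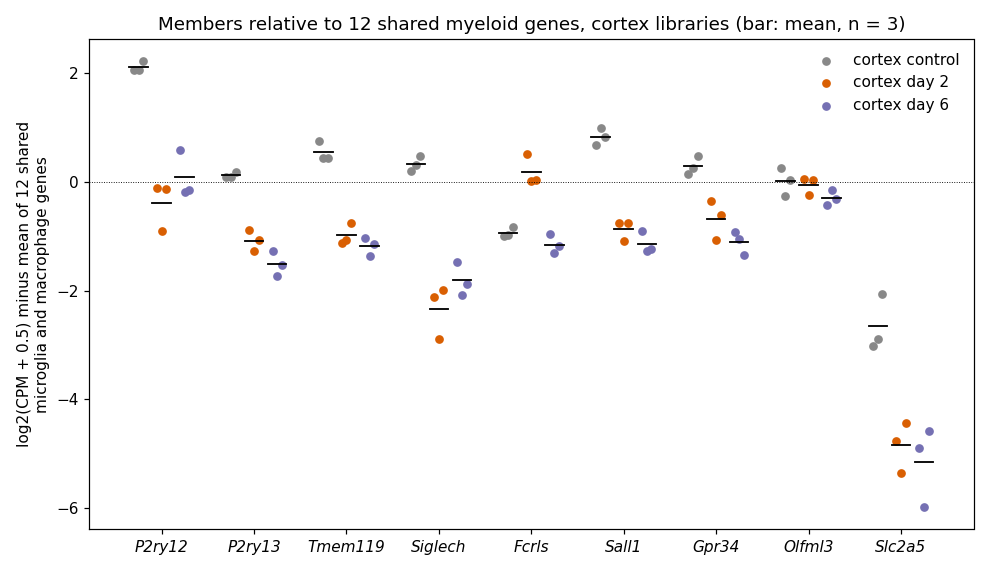
Level of each gene relative to 12 shared microglia and macrophage genes (vertical axis, log2 difference within a library) in control, day 2 and day 6 cortex; points are libraries and bars their mean. P2ry12 goes from about 2.12 in controls to -0.38 at day 2, Fcrls rises above its controls at day 2 only, and Olfml3 overlaps its controls on both days.

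Other genes named for microglia mostly rose in cortex. Of 23 tested, 15 rose and 2 fell at day 2 (median 0.51), and 18 rose at day 6 (median 1.00). Over all genes tested, 14.7% were higher and 9.99% lower at day 2, and 7.93% were higher at day 6. The enzyme gene Hpgds (2.02 ± 0.23), the protease gene Lgmn (1.83 ± 0.19), the transcription factor Irf8 (2.11 ± 0.25) and Golm1 (1.14 ± 0.13) had the smallest adjusted p at day 2. Mef2c, a transcription factor that neurons make too, fell by 0.61 ± 0.14, and the protease inhibitor Cst3 fell by 0.37 ± 0.10. Examples at day 6 were the checkpoint protein Vsir (1.47 ± 0.16), Irf8 (2.55 ± 0.26) and the transporter Slco2b1 (1.24 ± 0.14). From day 2 to day 6, 8 of 23 rose, where 5.3% of all genes tested were higher.

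The ADP receptors have relatives that sense nucleotides or adenosine. For the counts below, 14.7% of all genes tested in cortex were higher and 9.99% lower at day 2, and 7.93% were higher at day 6. Of 18 purinergic receptor and ectonucleotidase genes tested in cortex, 6 rose at day 2 and 5 at day 6. The UDP receptor P2ry6 rose by 2.15 ± 0.31 and 2.24 ± 0.31 on these days, the ATP and UTP receptor P2ry2 by 3.05 ± 0.53 and 2.54 ± 0.54, and the ATP-gated channel P2rx7 by 0.89 ± 0.22 and 0.72 ± 0.22. Nt5e, the ectoenzyme that turns AMP into adenosine, rose by 1.24 ± 0.22 at day 2 and fell by 1.45 ± 0.23 from day 2 to day 6. Of 16 genes of TGF-beta signalling, which sustains the resting state, 6 rose at day 2 and 4 at day 6. The ligand Tgfb1 rose by 2.05 ± 0.27 and 2.16 ± 0.27, its milieu protein Nrros by 1.63 ± 0.22 and 1.59 ± 0.22, and the receptor Tgfbr2 by 1.62 ± 0.23 and 1.82 ± 0.24. The receptor subunit Tgfbr1 rose at day 6 (0.76 ± 0.13). Of 12 hexose transporter and fructose metabolism genes, 3 rose and 1 fell at day 2; Slc2a9 rose by 2.17 ± 0.34, the glucose transporter Slc2a1 by 0.80 ± 0.13 and Slc2a12 by 0.70 ± 0.23, and the aldolase Aldoc fell by 0.27 ± 0.09. At day 6, 2 rose. Of 11 tested relatives of the Siglec, Fcrl, Olfml and Sall families, 6 rose at day 2, led by the lectins Cd22 (4.53 ± 0.74), Siglec1 (2.99 ± 0.52), Cd33 (0.89 ± 0.18) and Siglecf (2.33 ± 0.52). Even at day 2 Cd22, Siglec1 and Siglecf were low, at means of 1.07, 3.33 and 1.29 CPM, against 23.3 CPM for Cd33. The lectin relatives with the smallest p therefore rose at a time when Siglech fell.

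Several of the genes were scarcer in the skull bone at day 2. Of the 8 genes tested, 4 were called lower (P2ry13, Gpr34, Fcrls and Siglech) and 0 higher at day 2, where 16.6% of 17450 genes tested were lower and 17.8% higher, 34.4% in all. DESeq2 and limma voom called 0 higher as well, and at an unadjusted p under 0.05 Olfml3 was the only gene higher. The median was -1.44, against -0.01 for all genes. At day 4, 1 of 8 was called higher (Fcrls) and 0 lower, where 5.83% of all genes tested were higher and 4.79% lower, 10.6% in all. From day 2 to day 4, 5 of 8 were called higher and 0 lower, where 10.6% were higher and 11.1% lower, 21.6% in all. DESeq2, limma voom and an unadjusted p under 0.05 in edgeR also found 0 lower in these latter comparisons. The 5 became 3 without day 2 replicate 1 or 2 or day 4 replicate 1 or 3. Groups did not overlap in 47.7%, 31.1% and 42.6% of all genes in these comparisons. Without skull control replicate 3, edgeR called 4024 in place of 6007 genes at day 2 and 10 in place of 1853 at day 4. P2ry13 (-1.45, adjusted p = 0.00598), Gpr34 (-1.62, adjusted p = 0.00381) and Fcrls (-1.66, adjusted p = 0.00142) were still called lower at day 2, whereas Siglech (-1.33, adjusted p = 0.122) at day 2 and Fcrls at day 4 (0.61, adjusted p = 0.102) were not called.

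Among the receptors, P2ry13 stood at 6.78, 7.83 and 7.64 CPM in control skull, 2.78, 2.13 and 3.15 CPM at day 2 and 8.20, 7.74 and 6.30 CPM at day 4. Day 2 was apart from both other groups, which overlapped. P2ry13 fell to 36.3% of control at day 2 (-1.46 ± 0.21, adjusted p = 0.000894, edgeR's quasi-likelihood test), rose by 1.46 ± 0.21 from day 2 to day 4 (adjusted p = 0.00167) and then differed from control by 0.00 ± 0.20. Gpr34 stood at 9.67, 7.69 and 7.91 CPM in controls, 3.18, 3.20 and 2.17 CPM at day 2 and 14.9, 12.4 and 12.1 CPM at day 4, with the 3 groups apart. It fell by 1.56 ± 0.20 (adjusted p = 0.000615) and rose by 2.20 ± 0.21 from day 2 to day 4 (adjusted p = 0.000231). Its day 4 level, 1.56-fold that of controls, did not pass the test (0.64 ± 0.19, adjusted p = 0.0613), though it did with DESeq2 (adjusted p = 0.0296) and limma voom (0.0431). P2ry12 stood at 24.3, 15.5 and 20.8 CPM in controls, 13.6, 18.4 and 14.4 CPM at day 2 and 35.7, 19.6 and 24.1 CPM at day 4. The controls overlapped both injured groups, and neither difference from control (-0.38 ± 0.24 and 0.39 ± 0.24) passed the test. The rise of P2ry12 from day 2 to day 4 (0.78 ± 0.24, adjusted p = 0.0474) was lost under 6 other ways of fitting (adjusted p from 0.0506 to 0.0782) and when day 2 replicate 1, 2 or 3 or day 4 replicate 1 or 3 was left out (adjusted p from 0.0586 to 0.161).

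Fcrls stood at 22.1, 16.7 and 22.4 CPM in control skull, 6.03, 7.12 and 5.32 CPM at day 2 and 29.6, 30.8 and 28.3 CPM at day 4, with the 3 groups apart. It fell to 30.2% of control at day 2 (-1.73 ± 0.16, adjusted p = 0.000122) and rose by 2.26 ± 0.16 to day 4 (adjusted p = 7.19e-05). The excess over controls at day 4 (0.54 ± 0.15, adjusted p = 0.0454) did not hold when any of the 6 libraries was left out (adjusted p from 0.0593 to 0.133), nor with RLE factors (0.0528) or in a fit of these groups alone (0.0715). Siglech stood at 5.91, 1.96 and 4.84 CPM in controls, 0.88, 1.46 and 2.36 CPM at day 2 and 4.93, 3.70 and 7.55 CPM at day 4. Control replicate 2 lay within the day 2 range, and the counts behind these groups were 188, 71 and 219. The fall at day 2 (-1.43 ± 0.48, adjusted p = 0.0455) was lost with limma voom (0.0885), in a fit of these 2 groups alone (0.0693) and without control replicate 1 or 3 or day 2 replicate 1 or 2 (0.116 to 0.134). The rise from day 2 to day 4 (1.77 ± 0.48, adjusted p = 0.0287) was lost without day 2 replicate 1 or 2 or day 4 replicate 1 or 3 (0.0656 to 0.103).

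Genes of plasmacytoid dendritic cells, which also make Siglech, were measured beside it. In skull at day 2, 2 of 11 rose and 3 fell, where 17.8% of all genes tested were higher and 16.6% lower. Spib, a transcription factor, fell by 2.23 ± 0.52, Pacsin1 by 1.35 ± 0.20 and Cox6a2 by 3.92 ± 1.23, while Bst2 rose by 1.21 ± 0.37 and Clec12a by 0.43 ± 0.13. Their sum was 554 to 690 CPM in controls and 568 to 723 CPM at day 2, with 0 of 13 at 0. A few abundant genes dominate such a sum. At day 4 it was 650 to 735 CPM, with Runx2, also on the osteoblast list, at a mean of 248 CPM. Tcf4 then stood at 214 and Clec12a at 113 CPM, against 16.3 CPM for Spib. Of 10 border macrophage markers, 5 fell and 1 rose at day 2, with Mrc1 at -0.93 ± 0.10, Stab1 at -0.68 ± 0.11, Clec10a at -1.63 ± 0.26 and Cbr2 at -1.15 ± 0.24, and Ms4a7 at 0.43 ± 0.10. From day 2 to day 4, 6 of 10 were higher, Mrc1 by 1.12 ± 0.10, where 10.6% of all genes tested were higher. The sum of these markers was 549 to 561 CPM in controls, 348 to 448 CPM at day 2 and 650 to 768 CPM at day 4, with 0 of 10 at 0. Monocyte markers were higher in 7 of 9 cases at day 2, with a sum of 267 to 281 CPM in controls and 479 to 510 CPM at day 2. Neuron markers were present in the control bone and scarce after injury: 9 of 10 fell at day 2 and 8 of 10 at day 4, by medians of -3.46 and -2.88. Their summed level was 519 to 991 CPM in controls, 57.4 to 157 CPM at day 2 and 105 to 153 CPM at day 4, with 0 of 10 at 0. Of all genes tested, 4.79% were lower at day 4 than in controls. The list counts against control skull include control replicate 3. Without it, 10 genes in all were called at day 4. Neutrophil markers were higher in 8 of 10 cases from day 2 to day 4, with a sum of 2543 to 2841 CPM at day 2 and 4427 to 8446 CPM at day 4. Between day 2 and day 4, edgeR called 0 of the 10 neuron markers, with 0 at an unadjusted p under 0.05. In control replicates 1, 2 and 3 the neuron sum was 991, 519 and 807 CPM. P2ry12, Siglech, Fcrls, Gpr34, Tmem119 and Olfml3 were also lowest in control replicate 2, whereas P2ry13, Sall1 and Slc2a5 were highest there. The part of these cells in the skull results was not tested.

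**Figure D4:**
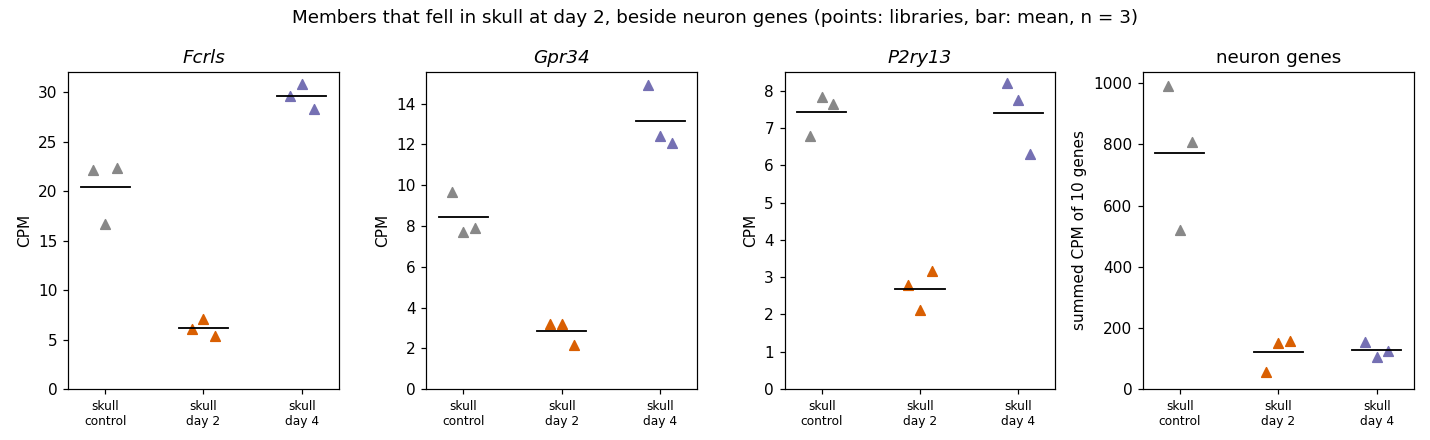
Fcrls, Gpr34 and P2ry13 in CPM and the summed CPM of 10 neuron markers (vertical axes, from 0) in the skull libraries of each group; points are libraries and bars their mean. Fcrls, Gpr34 and P2ry13 drop at day 2 and are higher again at day 4, when Fcrls and Gpr34 lie above every control library. The neuron markers are at 519 to 991 CPM in controls and at 57.4 to 157 CPM in all injured libraries.

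Tmem119 and Olfml3, the pair that was most abundant in bone, did not pass the test there. Tmem119 stood at 220, 194 and 203 CPM in control skull, 282, 251 and 176 CPM at day 2 and 196, 316 and 304 CPM at day 4, with all groups overlapping (0.20 ± 0.21 at day 2 and 0.40 ± 0.21 at day 4). Olfml3 stood at 408, 360 and 393 CPM in controls, 503, 459 and 435 CPM at day 2 and 390, 520 and 471 CPM at day 4. Its day 2 libraries lay above the controls, but the difference of 0.27 ± 0.11 missed the threshold (adjusted p = 0.0924). At day 4 the difference was 0.25 ± 0.11 (adjusted p = 0.18), which passed without day 4 replicate 1 (0.0497). Per kilobase these genes led the 9 in all skull groups, with 89.0 ± 5.69 CPM per kb for Tmem119 and 62.8 ± 3.97 for Olfml3 in controls, above Fcrls at 8.73 ± 1.38 and P2ry12 at 7.94 ± 1.74. Slc2a5 was near the detection limit in bone, with 24 counts over the 3 control libraries, 6 over those of day 2 and 7 over those of day 4.

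Sall1 was uneven among the skull controls and at day 2, and its day 4 libraries lay close together. It stood at 2.69, 73.3 and 30.4 CPM in controls, 3.79, 14.6 and 17.3 CPM at day 2 and 14.2, 12.6 and 16.3 CPM at day 4. Controls alone spanned the whole range of the tissue, and neither difference from them (-1.58 ± 1.02 and -1.31 ± 1.01) passed the test. Among 12072 genes that reached 5 CPM on average, those most like Sall1 over the 9 skull libraries were Pde6b (r = 0.99), a rod photoreceptor phosphodiesterase subunit, Cplx3 (0.99), a synaptic complexin, and Slc39a4 (0.99), a zinc transporter. Pde6b stood at 0.60, 63.3 and 24.6 CPM in the control libraries in the same order. Tph1, which makes the serotonin precursor, stood at 6.65, 1476 and 549 CPM there, and the photoreceptor transcription factor Crx at 0.40, 91.1 and 32.9 CPM; these 2 genes were picked after their values were seen. In the injured skull Tph1 stood at 41.0, 218 and 230 CPM at day 2 and at 209.7, 164 and 209 CPM at day 4. Crx stood at 5.62, 23.97 and 22.5 CPM at day 2 and at 19.4, 14.1 and 14.4 CPM at day 4. Replicate 1 was thus the lowest of day 2 for all 3 genes, and replicate 2 the lowest of day 4. The highest of day 4 was replicate 3 for Sall1 and replicate 1 for Tph1 and Crx. No label says whether each library came from the same extent of bone and adjoining tissue. The part of these transcripts in the Sall1 comparisons was not tested, and the skull levels of Sall1 are given as a description only.

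**Figure D5:**
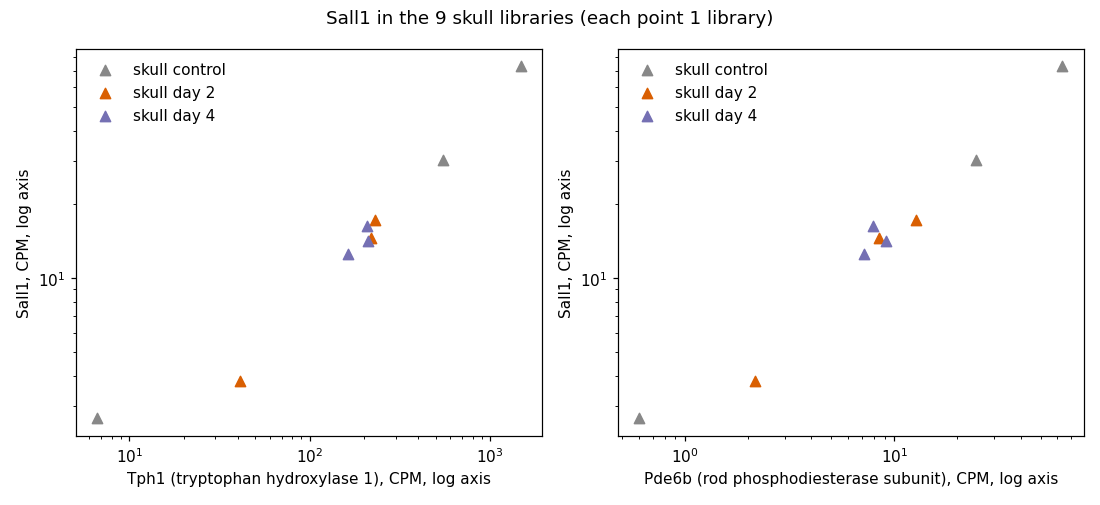
Sall1 level against that of Tph1 (left) and of Pde6b (right) in the 9 skull libraries, in CPM on log axes. The control libraries and day 2 replicate 1 are spread along the diagonal, the day 4 libraries lie close together, and the control libraries hold both the lowest (2.69 CPM) and the highest (73.3 CPM) level of Sall1.

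Of 23 other microglia genes in skull at day 2, 4 were higher and 6 lower, where 17.8% of all genes tested were higher and 16.6% lower. The fractalkine receptor Cx3cr1 fell by 1.25 ± 0.12, Cst3 by 0.91 ± 0.12, Slco2b1 by 1.13 ± 0.17 and Bin1 by 0.66 ± 0.10, while Golm1 rose by 0.68 ± 0.11, Lgmn by 0.79 ± 0.13 and Hpgd by 0.67 ± 0.14. The complement genes C1qa, C1qb and C1qc, which belong to the list shared with macrophages, fell by 0.93 ± 0.11, 0.98 ± 0.11 and 1.00 ± 0.14, and Itgam rose by 0.88 ± 0.16. From day 2 to day 4, 10 of 23 microglia genes rose, led by Cx3cr1 (1.40 ± 0.12), and 2 fell, Golm1 (-0.35 ± 0.11) and Lgmn (-0.41 ± 0.13). In that comparison, 10.6% of all genes tested were higher and 11.1% lower. Of 19 purinergic genes tested in skull, 3 rose and 4 fell at day 2, near the shares of all genes tested; Nt5e rose by 1.25 ± 0.15, P2rx6 fell by 1.36 ± 0.18 and P2rx4 fell by 0.42 ± 0.08. Of 16 TGF-beta genes, 5 rose, with Tgfb1 at 0.52 ± 0.11.

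The day 2 responses of cortex and skull were compared in a single fit over 12 libraries, as the difference of the log2 changes. It was called for 4 of 9 genes, all with the larger value in cortex, where 14% of 18863 genes tested were called in that direction and 3.6% in the other, 17.6% in all. DESeq2, limma voom and an unadjusted p under 0.05 in edgeR found 0 genes in the other direction too. The median over all genes in this fit was 0.20. The difference was 5.01 ± 0.23 for Fcrls (adjusted p = 4.48e-07), 2.67 ± 0.23 for Gpr34 (adjusted p = 3.81e-05) and 2.33 ± 0.22 for P2ry13 (adjusted p = 5.93e-05). These 3 genes rose in cortex and fell in bone. For Olfml3 it was 1.75 ± 0.22 (adjusted p = 0.000383), with a rise in cortex and no call in bone. P2ry12 differed by -0.05 ± 0.25, Tmem119 by 0.35 ± 0.30, Siglech by 0.81 ± 0.54 and Slc2a5 by 1.73 ± 0.94, and none of these passed the test. Sall1 differed by 1.92 ± 1.14 and passed only without skull control replicate 1 (2.47, adjusted p = 0.0413). Without skull control replicate 3, where 2185 genes were called, the difference was 4.94 for Fcrls (adjusted p = 4.32e-06), 2.71 for Gpr34 (adjusted p = 0.000191), 2.31 for P2ry13 (adjusted p = 0.000348) and 1.74 for Olfml3 (adjusted p = 0.00179).

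Uninjured tissues were compared over their 6 libraries. P2ry12, Siglech, P2ry13, Gpr34 and Slc2a5 were higher in cortex and Tmem119, Olfml3 and Fcrls higher in skull, 5 and 3 of 9, where 34.5% of 18173 genes tested were higher in cortex and 36.4% in skull, 70.9% in all, and where libraries did not overlap for 76.7% of genes. Siglech was 3.63-fold higher in cortex (1.86 ± 0.36, adjusted p = 0.00306), P2ry12 2.68-fold (1.42 ± 0.17, adjusted p = 0.000284), P2ry13 1.79-fold (0.84 ± 0.14, adjusted p = 0.00117) and Gpr34 1.78-fold (0.83 ± 0.15, adjusted p = 0.00207). For Slc2a5 the difference of 1.54 ± 0.45 (adjusted p = 0.0182) was lost without cortex control replicate 3 or skull control replicate 1 or 3 (0.0513 to 0.0603). In the other direction, Olfml3 was 31.1-fold higher in bone (-4.96 ± 0.21, adjusted p = 3e-06), Tmem119 11.3-fold (-3.50 ± 0.17, adjusted p = 4.48e-06) and Fcrls 3.33-fold (-1.74 ± 0.17, adjusted p = 8.97e-05). Sall1 did not pass the test (-0.67 ± 0.92), except without skull control replicate 1 (-1.22, adjusted p = 0.0268). Without skull control replicate 3, the other calls than that of Slc2a5 held, with Siglech at 1.96 (adjusted p = 0.0136), P2ry12 at 1.44 (0.00247), P2ry13 at 0.86 (0.00731) and Gpr34 at 0.78 (0.0142), and Olfml3 at -4.95, Tmem119 at -3.52 and Fcrls at -1.67 (adjusted p up to 0.000922). Neuron markers were higher in cortex in 10 of 10 cases and osteoblast markers higher in skull in 9 of 10, as the tissue labels say, and all 12 shared macrophage genes were higher in skull, with a median log2 difference of -1.93 (cortex minus skull).

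The 9 genes were also set against each other. Over the 9 cortex libraries, 13 of 36 pairs had r above 0.8 on log2 CPM, with a range from -0.41 (Siglech and Fcrls) to 0.99 (P2ry13 and Olfml3). Over the 9 skull libraries 5 of 36 pairs did, with a range from -0.50 to 0.99, the highest for Fcrls and Gpr34, and Tmem119 and Olfml3 had r = 0.83. These values span groups and describe shared steps between groups as well as variation within them. Among 11727 cortex genes, those most like Fcrls were the complement gene C3, the pan-leukocyte gene Ptprc and the lactate transporter Slc16a1 (r = 0.99 to 1.00), and those most like P2ry13 were Antxr2, the haematopoietic gene Nckap1l and the Fc receptor chain Fcer1g. Olfml3 was most like Rnase4, Clec5a and Gusb, Gpr34 like Ikbke, Prdx4 and Snx5, Sall1 like Tifa, Fuca2 and Lamp1, and Tmem119 like Ftl1, Csf2ra and Nat6. P2ry12 was most like Alas1, Col11a2 and Hivep1 (r = 0.95 to 0.93), and Siglech like Ddit4l, Pamr1 and Neu4. The values for Slc2a5 were lower, with r = 0.88 for Klhl36, 0.83 for Tfip11 and 0.81 for Igsf9.

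Over the skull libraries Tmem119 was most like Slc13a5, Snx8 and Pcolce, the enhancer of procollagen processing (r = 0.95 to 0.95). Olfml3 was most like Creb3l1, a transcription factor of bone matrix secretion, and the collagen chaperones Fkbp10 and Fkbp7 (r = 0.98 to 0.97). Fcrls was most like the mannose receptor Mrc1, Pard3b and Npr1 (r = 0.99), and Gpr34 was most like Pard3b, Thap3 and Ddah2. P2ry13 was most like Gli1, Fam110b and Smarca2, P2ry12 like Tspan15, Ccdc102a and Daam1, and Siglech like Kazn, Limch1 and Pou2f2.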

How the data were processed

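Poly(A)-selected RNA was sequenced as paired reads of 150 bases, per the labels' protocols. Reads were aligned with HISAT2 2.1.0 to mm10, per the submitters' processing notes; how reads were assigned to genes, and with which annotation or strand rule, is not given in the sources used here. As deposited, the values are raw read counts per gene, with 26783 lines for 25918 names; 865 surplus identical copies of 49 names were removed. The tests ran in edgeR 4.0.16 under R 4.3.3, with filterByExpr by group, TMM factors over the libraries of each fit, and a robust quasi-likelihood fit over 9 libraries per tissue, 12 for the difference of day 2 responses and 6 for the controls. P-values were adjusted over all genes tested (Benjamini-Hochberg, below 0.05). The procedure was tested on simulated data. Alternatives were RLE factors, other filters, DESeq2 1.42.0, limma 3.58.1 voom, a replicate block, fits of the compared groups alone and leaving out each library; TMM factors over all 18 libraries were added after seeing the data. The 9 genes and the 20 lists (237 genes, 233 in the table) were chosen with earlier results of these data known. Of a list, the up to 4 called genes with the smallest adjusted p and those called against the majority were named, and for each of the 9 genes the 3 most correlated genes averaging 5 CPM or more; a few others served as examples, and some genes that qualify are not reported here. Levels per kb use the joined exons of GENCODE M21. Levels of cortex and skull are scaled apart, so differences between tissues were tested only in the joint fits. How far each library lay between the others of its group was checked on CPM by library total, after seeing the data.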

Additional observations from a re-analysis of the deposited data

Results flagged for a closer look

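The day 2 response differed between cortex and skull for 4 of the 9 genes by the interaction test over 12 libraries (edgeR's quasi-likelihood test, adjusted over 18863 genes). The difference, cortex minus skull on the log2 scale, was 5.01 for Fcrls, 2.67 for Gpr34, 2.33 for P2ry13 and 1.75 for Olfml3. Fcrls, Gpr34 and P2ry13 rose in cortex and fell in skull, and Olfml3 rose in cortex and was not called in skull. The 4 calls held in every alternative run, each library left out included.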

How the results depend on the processing

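Of 1002 values of single genes under other settings, 951 kept their side of the threshold, 44 lost the call and 7 gained it. Direction changed for 0 values of called comparisons and for 26 of comparisons not called. For skull at day 4 against control, the 1853 genes called became 2842 with DESeq2, 1004 with only the compared groups fitted and 765 with the replicate block; the 1 homeostatic gene called higher became 2 with DESeq2, 2 with limma voom, and 0 with RLE factors, with only those groups and with the replicate block. No pairing by replicate number was used in the main fits. Of 21 same-numbered pairs, 8 correlated above 0.1 (-0.48 to 0.29) and 8 were most like their own number. With 3 libraries per group, such values cannot exclude a shared animal or batch. Day 2 cortex was not set against day 2 skull in this check. Leaving out 1 library moved the genes called to between 1005 and 2091 for cortex at day 6 against control (1872 in full; moved by over 1.5 times without control replicate 2 or 3 or day 6 replicate 2 or 3), with 4 to 7 homeostatic genes higher, and to between 910 and 1948 for day 6 against day 2 (2099 in full; moved as much without day 2 replicate 3 or day 6 replicate 1 or 3). In skull the range was 10 to 2537 for day 4 against control (10 without control replicate 3, 591 without day 4 replicate 2, 237 without day 4 replicate 3), with 0 to 1 homeostatic genes higher, and 2260 to 3057 for day 4 against day 2 (3772 in full; moved as much without day 2 replicate 1 or 3 or day 4 replicate 1 or 3), with 3 to 5 higher. For the difference of day 2 responses it was 2185 to 3978 (3313 in full; lowest without skull control replicate 3). Depth limits Slc2a5 and Siglech in skull.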
